A study of Homo sapiens with 4 samples.

Results

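Histone genes of the H1, H2A, H2B, H3 and H4 classes were compared between hypoxia and normoxia in HCT116, a widely used line of human colon cancer cells. They were chosen by symbol from the platform's probe-to-gene table, using probe sets listed for 1 gene. The rule found 50 of the 19775 genes with such a probe set, of which 46 are listed as protein coding, 3 as pseudogenes (H1-9P, H2AC5P and H4C10P) and 1 as an antisense RNA (H1-10-AS1). None of the 4 noncoding genes reached the signal needed for testing, and the descriptions below use the 46 coding genes. The coding genes were 9 of class H1, 8 of H2A, 14 of H2B, 7 of H3 and 8 of H4. RefSeq placed 40 of them on chromosome 6 and 2 on chromosome 1, where the replication-dependent histone clusters lie. The other 4 lie elsewhere (H1-10 and H1-8 on chromosome 3, H1-7 on chromosome 12 and H2BC12L on chromosome 21), so the name of clustered histone genes does not hold for them.

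Every culture spent 24 h without serum, followed by 72 h in either 1% oxygen (hypoxia) or 21% oxygen (normoxia). Each group had 2 arrays, titled exp A and exp B and called A and B here. Whether A and B were separate cultures is not in the labels, so p-values reflect only the spread between these arrays, which may be technical, and the number of arrays limits the precision. Signals are MAS5 intensities, scaled so that every array has about the same trimmed mean. Values are therefore relative to the other genes of an array. Means are given ± SD with n = 2 arrays, and log2 differences (hypoxia minus normoxia) are on the log2(signal + 23.7) scale ± SE, which understates changes at low signal. A gene was tested with limma if its mean signal reached 97.4, and called where p, adjusted by Benjamini-Hochberg, was under 0.05 over all 12636 genes tested.

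Core histones H2A, H2B, H3 and H4 form the octamer around which DNA is wrapped, and the linker histone H1 binds where DNA enters and leaves it. Most genes in the histone clusters are transcribed in S phase, when new DNA must be packaged, and their mRNAs end in a conserved stem-loop instead of a poly(A) tail. The stem-loop binding protein SLBP and the U7 small nuclear ribonucleoprotein make that end, and the coactivator NPAT drives transcription of the clusters. Some of these genes also make polyadenylated transcripts, mainly in cells that have stopped dividing or are differentiating. The standard labelling for this type of array primes cDNA from poly(A), so it can miss mRNAs that end in the stem-loop. The labels name total RNA as the input and the standard Affymetrix cRNA protocol.

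The upstream sequences of 6 genes are shown because these genes carry the changes described below: H1-2, H2AC25, H2AC6, H2BC12 and H2BC5 were called higher, and H4C11 is the 1 called lower. Each is the 200 bases before the gene's start, 5′ to 3′ on the gene's strand, from RefSeq (GRCh38.p14). Capitals mark the TATA element TATAAA, the CCAAT box, the octamer ATTTGCAT and the H1 box AAACACA, on either strand.
H1-2 (chr6:26056471-26056670, minus strand): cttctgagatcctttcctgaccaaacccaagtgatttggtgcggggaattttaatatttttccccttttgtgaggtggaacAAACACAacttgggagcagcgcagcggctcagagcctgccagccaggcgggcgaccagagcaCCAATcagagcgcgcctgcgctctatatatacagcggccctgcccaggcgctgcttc
H2AC25 (chr1:228457874-228458073, minus strand): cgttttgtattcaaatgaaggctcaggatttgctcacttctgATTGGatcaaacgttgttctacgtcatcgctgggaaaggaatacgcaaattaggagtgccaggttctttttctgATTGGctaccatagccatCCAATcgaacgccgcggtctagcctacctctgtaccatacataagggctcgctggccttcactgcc
H2AC6 (chr6:26123972-26124171, plus strand): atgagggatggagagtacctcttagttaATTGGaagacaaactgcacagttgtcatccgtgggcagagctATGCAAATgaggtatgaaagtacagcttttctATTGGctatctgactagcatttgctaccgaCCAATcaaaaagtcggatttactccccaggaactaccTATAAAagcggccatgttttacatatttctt
H2BC12 (chr6:27146856-27147055, minus strand): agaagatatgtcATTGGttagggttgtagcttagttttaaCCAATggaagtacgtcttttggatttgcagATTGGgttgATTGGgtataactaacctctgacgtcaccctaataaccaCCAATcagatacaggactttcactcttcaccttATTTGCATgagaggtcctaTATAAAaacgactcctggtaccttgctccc
H2BC5 (chr6:26157921-26158120, plus strand): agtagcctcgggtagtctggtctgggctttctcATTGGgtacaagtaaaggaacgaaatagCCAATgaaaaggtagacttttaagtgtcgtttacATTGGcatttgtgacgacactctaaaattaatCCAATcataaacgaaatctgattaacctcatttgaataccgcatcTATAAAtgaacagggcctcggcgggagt
H4C11 (chr6:27823892-27824091, plus strand): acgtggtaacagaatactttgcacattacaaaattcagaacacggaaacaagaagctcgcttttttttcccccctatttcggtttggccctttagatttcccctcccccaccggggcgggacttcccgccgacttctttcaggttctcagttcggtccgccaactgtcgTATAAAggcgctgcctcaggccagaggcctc
These motifs are classical elements of histone promoters, and none of them contains another. In the 250 bases before the start, on both strands, CCAAT stood in 37 of the 43 coding members with a RefSeq promoter (86.0%), against 32.0% of all 35116 promoters. TATAAA stood in 28 (65.1%) against 10.7%. The octamer ATTTGCAT stood in 16 (37.2%) against 1.63%, in 6 of 8 H2A and 10 of 13 H2B genes and in 0 genes of the other classes. AAACACA stood in 7 (16.3%) against 4.82%, all of them H1 genes. ACGTG, the core bound by hypoxia-inducible factors, stood in 7 (16.3%) against 18.5% of all promoters. Of the 8 genes called higher, 7 had a promoter in the table: CCAAT was found in 7 of the 7, TATAAA in 4, the octamer in 4 (H2AC6, H2BC12, H2BC6 and H2BC9) and ACGTG in 0. A match describes letters in a window and does not show binding.

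Epithelial markers EPCAM, KRT8, KRT18 and CDH1 were above the highest of 27 Bacillus control probe sets on all 4 arrays, as the cell line's label requires. Of 4 markers of other cell types, VIM, PTPRC and PECAM1 were not above it on all arrays, and the collagen gene COL1A1 was, at 545 and 595 in normoxia and 1752 and 2162 in hypoxia. The highest control signal was 45.7 and 121 on normoxia arrays A and B, and 305 and 226 on hypoxia arrays A and B. The ratio of 3' to 5' signal of ACTB, a measure of RNA or cRNA length, was 1.26 and 1.28 in normoxia and 1.66 and 1.77 in hypoxia. For GAPDH it was 0.918 and 0.996 in normoxia and 0.912 and 0.955 in hypoxia. The part of these differences in the histone values was not tested. In bulk samples, a change in how many cells express a gene and a change in its RNA per cell cannot be told apart.

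Of the 21 coding histone genes tested, 8 were called higher in hypoxia, 1 was called lower and 12 were not called. Among all genes tested, 15.3% were called higher and 22.8% lower, 38% in all. The genes called higher were 5 of class H2B (H2BC5, H2BC6, H2BC12L, H2BC9 and H2BC12), H2AC25 and H2AC6 of class H2A, and H1-2. The gene called lower was H4C11. No H3 gene was called at the adjusted threshold, and the unadjusted p was under 0.05 for the 9 called genes and none of the other 12 tested members. These directions are relative to the median gene tested, whose log2 difference was -0.03. With scaling to the 75th percentile that median was 0.13, and 9 histone genes were called higher and 1 lower, beside 18.8% higher and 18.9% lower of all genes tested. Scaling to the hybridization controls moved that median to -1.48, and under it 0 histone genes were called higher and 2 lower (H4C11 and H1-4), beside 52 higher and 5785 lower of all genes, with H2AC6 (-0.38) and H2BC12 (-0.15) on the other side of 0. Histone genes are near-identical copies: 6 of the 9 called genes rest on probe sets whose suffix (x or s) marks probes that can match several transcripts. With such probe sets left out, 3 of 11 tested members were called higher (H1-2, H2AC25 and H2BC12) and 0 lower. Among all genes tested in that setting, 13.1% were called higher and 20.1% lower.

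**Figure D1:**
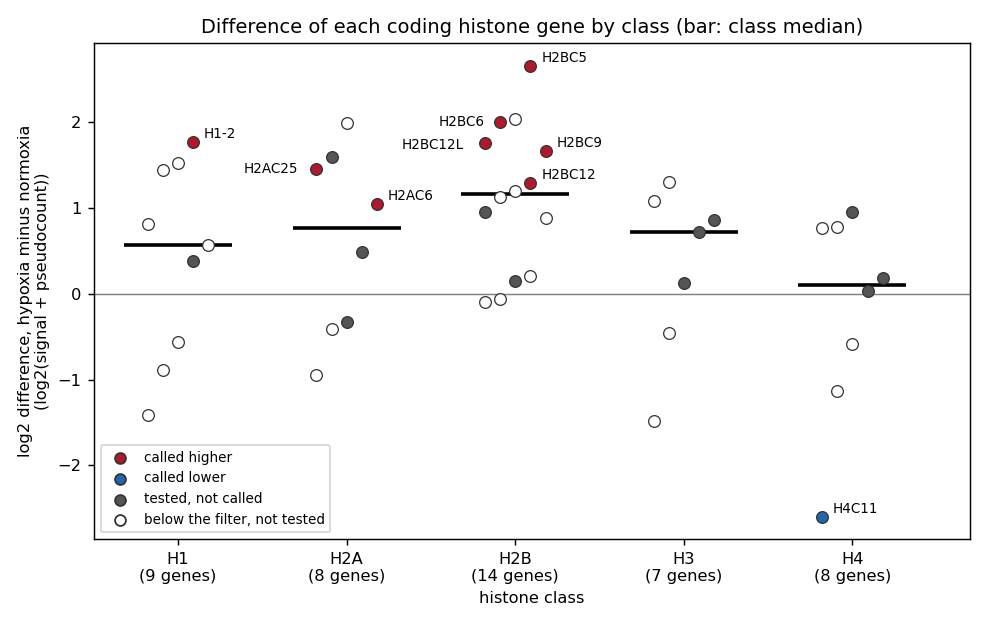
Log2 difference (hypoxia minus normoxia, log2(signal + 23.7) scale) of each of the 46 coding histone genes, 1 point per gene in 5 columns by class, with filled points for tested genes and a bar at each class median. The class medians run from 0.11 in H4 to 1.17 in H2B, and the 8 genes called higher lie in H1, H2A and H2B; under scaling to the hybridization controls H2AC6 and H2BC12 lie below 0.

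Signal limited what could be said of most members. The 25 coding genes below the filter could not be called, and 18 of the 46 were above the highest Bacillus control on no array. Only 8 were above it on all 4 arrays: H1-2, H1-10, H2AC25, H2AC6, H2BC12, H2BC12L, H2BC5 and H2BC6. Of these 8, 7 were called higher and H1-10 was not called. The share called among all genes above the controls was not computed, so this count has no comparison. With the filter at the 75th percentile, 8 members were tested and 7 of them were called higher. Among all genes tested in that setting, 23.1% were called higher and 32.3% lower. Members just inside the filter were H4C7 (mean signal 99.3), H3C3 (102) and H4C5 (103), and those just outside were H2BC14 (97.1), H2BC3 (88.3) and H2AC15 (87.9). H2BC14, which was not tested for this reason, had signals of 50.6 and 4.98 in normoxia and 175 and 158 in hypoxia, a log2 difference of 2.04.

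H1-2, which encodes one of the somatic linker histones, had signals of 772 and 712 on the normoxia arrays and 2477 and 2724 on the hypoxia arrays. Both hypoxia values lay far above both normoxia values. Its mean rose from 742 ± 42.5 to 2600.4 ± 175, a fold of 3.51 (log2 difference 1.78 ± 0.19 SE, adjusted p = 2.36e-04), on a probe set without an x or s suffix. H1-10, a linker histone gene outside the clusters, had 2487 and 2851 in normoxia and 3311 and 3653 in hypoxia. Its groups did not overlap, but the difference was small and was not called (0.38 ± 0.17 SE, adjusted p = 0.109). Without hypoxia array A it was called (0.45, adjusted p = 0.0258), as it was with scaling to the 75th percentile (0.53, adjusted p = 0.0408), and scaling to the hybridization controls gave -1.07.

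The other 7 H1 genes were below the filter, so their values are given without a test. H1-4, a somatic H1 gene, read 127 and 98.7 in normoxia and 11.04 and 51.3 in hypoxia, the lowest log2 difference of the class (-1.41). H1-1 read 14.6 and 113 in normoxia and 20.8 and 30.4 in hypoxia, and these overlapped. H1-3 read 39.3 and 31.9 against 118 and 52.7 in hypoxia, and H1-5 read 7.07 and 19.1 against 28.7 and 31.9. These 4 somatic H1 genes of the chromosome 6 cluster thus lay near or under the control signals and did not share 1 direction. The germline genes were as low. H1-6, known from testis, read 37.0 and 80.7 in normoxia and 29.7 and 11.003 in hypoxia, and its second probe set gave a log2 difference of 0.47 against -0.89. H1-7, also known from testis, read 7.54 and 58.3 against 122 and 105 (1.44), and its other probe sets gave -0.68 and 0.56. H1-8, the oocyte linker histone gene, read 7.21 and 15.5 against 18.7 and 214, so its log2 difference of 1.53 rests on hypoxia array B.

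Of the 5 tested H2A genes, 2 were called higher and 3 were not called. H2AC25, an H2A gene of the smaller cluster on chromosome 1, read 993 and 1088 in normoxia and 2981 and 2812 in hypoxia. The arrays of each group lay close together. Its mean rose from 1040.3 ± 66.9 to 2896 ± 119 (fold 2.78, 1.46 ± 0.18 SE on the log2 scale, adjusted p = 4.41e-04). The second probe set of this gene, with an x suffix, gave 76.8 and 63.0 in normoxia and 116 and 29.4 in hypoxia, a log2 difference of -0.11. Averaging both probe sets left 0.67 and ended the call (adjusted p = 0.161).

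H2AC6 read 1019 and 907 in normoxia and 2944 and 1385 in hypoxia, on an s probe set. Both hypoxia arrays were higher, but they differed from each other by more than the lower of them did from normoxia. The mean rose from 963 ± 78.9 to 2165 ± 1102 (1.05 ± 0.32 SE, adjusted p = 0.0285). The log2 difference was 0.52 without hypoxia array A and 1.59 without hypoxia array B. The call was lost without normoxia array A (1.14, adjusted p = 0.0687) and without normoxia array B (0.97, adjusted p = 0.123).

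The 3 H2A genes not called were dimmer. H2AC16 read 25.6 and 70.5 in normoxia and 143 and 231 in hypoxia (1.60, adjusted p = 0.139), without overlap between groups. H2AC4 read 74.7 and 94.5 against 145 and 112 in hypoxia (0.49). H2AC14 read 179 and 164 against 357 and 39.6 in hypoxia (-0.33), so its hypoxia arrays lay on opposite sides of normoxia.

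H2B had the most calls, with 5 of 7 tested genes higher and 0 lower. H2BC5 read 628 and 644 in normoxia and 3045 and 5634 in hypoxia, and the hypoxia arrays were far above normoxia while differing from each other. Its mean rose from 636 ± 11.7 to 4340 ± 1831, the largest fold of the called genes at 6.82 (2.66 ± 0.28 SE, adjusted p = 1.98e-04). A second probe set listed for H2BC5 read 427 and 443 in normoxia and 1354 and 1428 in hypoxia (1.63), so both gave the same direction with different sizes. Both have an x suffix, so their shared direction does not show that H2BC5 itself rose. H2BC6 read 302 and 177 in normoxia and 807 and 1244 in hypoxia. It rose 4.28-fold (2.01 ± 0.35 SE, adjusted p = 0.00238), without overlap and on an x probe set.

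H2BC12 had close arrays in both groups, at 1913 and 1807 in normoxia and 4533 and 4671 in hypoxia. Its mean rose from 1860 ± 75.02 to 4602 ± 97.8 (fold 2.47, 1.30 ± 0.16 SE, adjusted p = 4.73e-04), on a probe set without an x or s suffix; scaling to the hybridization controls gave -0.15 (adjusted p = 0.861). H2BC12L, a similar gene on chromosome 21, read 695 and 546 in normoxia and 1764 and 2599 in hypoxia. It rose 3.51-fold (1.76 ± 0.25 SE, adjusted p = 8.27e-04), on an x probe set. H2BC9 was dimmer, at 195 and 119 in normoxia and 490 and 590 in hypoxia, with its lowest value under the highest control of that array. It also rests on an x probe set. It rose 3.44-fold (1.67 ± 0.40 SE, adjusted p = 0.0101), and the call was lost without normoxia array B (1.36, adjusted p = 0.0780).

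H2BC21 and H2BC15 were tested and not called. H2BC21 read 135 and 219 in normoxia and 305 and 121 in hypoxia (0.16, adjusted p = 0.852), so the groups overlapped. H2BC15 read 9.47 and 112 against 329 and 24.0 in hypoxia (0.95), which also overlapped. Of the 7 H2B genes below the filter, H2BC1, which encodes the testis H2B, was lowest in signal, at 3.25 and 3.26 in normoxia and 7.67 and 7.01 in hypoxia.

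**Figure D2:**
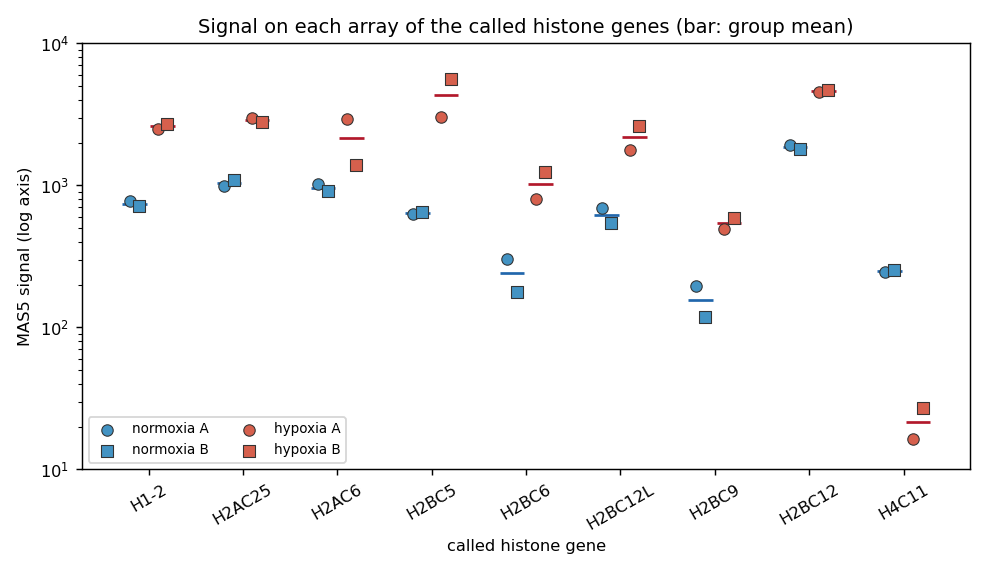
MAS5 signal on each of the 4 arrays (log axis) for the 9 called histone genes, with 1 point per array and a bar at each group mean. In the 8 genes called higher both hypoxia points lie above both normoxia points, and in H4C11 both lie below; these positions are for signals as deposited, and H2AC6 and H2BC12 change side under scaling to the hybridization controls.

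H3 and H4 genes were low in the probe sets used here, each gene's highest among those listed for it alone: none of their signals exceeded 256, and 0 of the 15 genes were above the highest control on all 4 arrays. A probe set listed for 14 H4 genes, which cannot be told apart, was brighter, at 2506 and 2753 in normoxia and 1180 and 1585 in hypoxia. The 3 tested H3 genes were not called. H3C6 read 105 and 142 in normoxia and 256 and 228 in hypoxia (0.86, adjusted p = 0.214), and its second probe set, at 59.5 and 195 against 130 and 262, overlapped between groups (0.63). H3C2 read 58.1 and 148 against 174 and 169 in hypoxia (0.72), without overlap. H3C3 read 34.1 and 175 against 62.7 and 134 (0.12), with overlap. Below the filter, H3C8 had the lowest log2 difference of the class (-1.48) and H3C7 the highest (1.30).

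H4C11 was the only member called lower with signals as deposited. It read 245 and 253 in normoxia and 16.2 and 27.1 in hypoxia, where both values were under the highest control of their array. Its mean fell from 249 ± 5.38 to 21.7 ± 7.69 (-2.60 ± 0.78 SE, adjusted p = 0.0283), on an x probe set. Its mean over all arrays, 135, passed the filter only through the normoxia signals, since both hypoxia signals lay below the filter's minimum. With the filter at the 75th percentile H4C11 was not tested. The call was lost without normoxia array A (-2.62, adjusted p = 0.385) and without normoxia array B (-2.58, adjusted p = 0.322). Since the hypoxia signals are near background, the size depends on the pseudocount: it was -1.49 with the median of all values and -3.51 with 1. The other 3 tested H4 genes were not called: H4C5 read 92.8 and 37.3 in normoxia and 113 and 170 in hypoxia (0.95). H4C4 read 52.5 and 173 against 41.5 and 218 (0.03), and H4C7 read 69.9 and 96.3 against 185 and 45.7 (0.18).

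The classes were compared by the median log2 difference of their coding genes, tested or not, with no test, since members of a class are not replicates. The median was 1.17 in H2B, 0.77 in H2A, 0.72 in H3, 0.57 in H1 and 0.11 in H4, beside 0.16 over all genes with a probe set. Setting hypoxia A against normoxia A, and B against B, gave 1.23 and 1.60 in H2B, 1.21 and 0.40 in H2A, 0.46 and 0.38 in H1, and 0.42 and 0.16 in H3. For H4 they gave -0.00 and -0.25. Over the tested genes alone, the median was 1.67 in H2B, 1.08 in H1, 1.05 in H2A, 0.72 in H3 and 0.11 in H4. Only 2 H1 genes were tested, and the median over all genes tested was -0.03. H2B stood first and H4 last with all arrays, by letter and without any 1 array, while the order of H1, H2A and H3 changed. H2A stood first with the pseudocount at the median of all values (0.62 against 0.61 in H2B) and with only probe sets without an x or s suffix (0.97 against 0.95), and H1 stood last with scaling to the hybridization controls. The H4 median was -0.54 without hypoxia array B, -0.32 without normoxia array A and 0.42 without normoxia array B. The H3 median was 0.11 without hypoxia array B and 0.18 without normoxia array A. The H1 median was 0.31 without hypoxia array B and 0.34 without normoxia array A, and the H2A median was 0.42 without hypoxia array A. Scaling to the hybridization controls turned every class median but that of H2B (0.23) below 0, in step with the fall of the median gene tested to -1.48.

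Counted by array, 24 of the 46 coding genes had both hypoxia signals above both normoxia signals, 6 had both below, and 16 overlapped. Among all genes with a probe set, 32.8% lay above and 27.6% below. The 24 were 8 of 14 H2B genes, 5 of 8 H2A, 6 of 9 H1, 3 of 7 H3 and 2 of 8 H4. The 6 that lay below were 2 of H1, 1 of H2B, 1 of H3 and 2 of H4, with 0 of H2A.

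**Figure D3:**
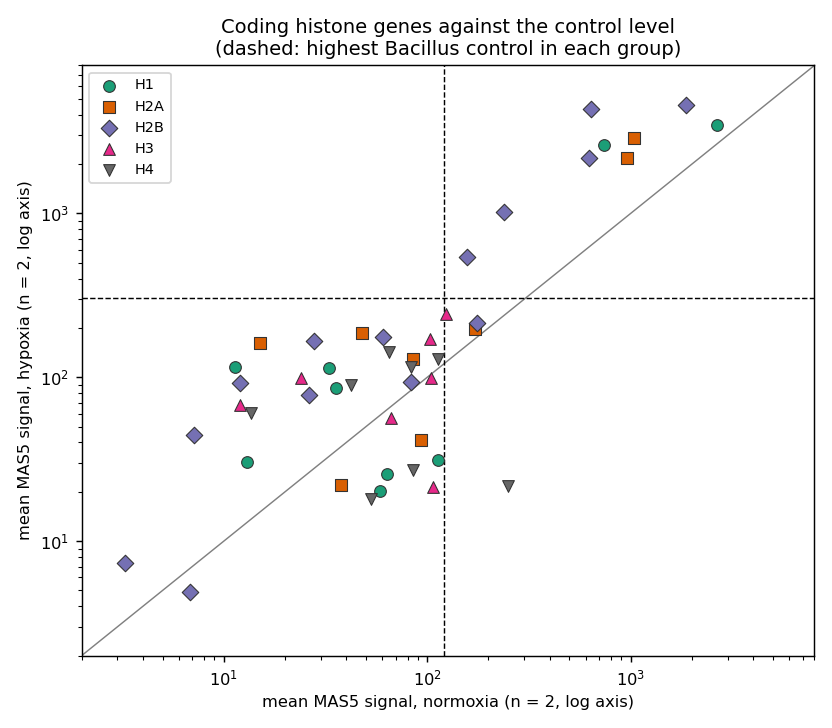
Mean signal in hypoxia against mean signal in normoxia (both axes logarithmic, n = 2 arrays per group) for the coding histone genes, coloured by class, with the line of equal signal and dashed lines at the highest Bacillus control of each group (121 and 305). All H3 and H4 genes have means under 256 in the probe sets used, and the genes called higher, H1, H2A and H2B genes, sit above the line, where H2AC6 and H2BC12 do not remain under scaling to the hybridization controls.

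Many H2A and H2B genes lie head to head and share the stretch between their starts. In the RefSeq table, 11 pairs of histone genes that point apart, with starts within 1000 bases, held at least 1 member, and in 5 of them both genes are members. H2AC6 and H2BC4, whose starts lie 246 bases apart, had log2 differences of 1.05 and 1.13. H2AC6 was called higher, and H2BC4, at 46.0 and 6.59 in normoxia and 62.6 and 93.1 in hypoxia, was below the filter and not tested. H2BC9 was called higher and its neighbour H3C7, with starts 979 bases apart, read 35.8 and 12.2 against 53.9 and 143 in hypoxia, also below the filter. In the other 3 pairs (H2AC14 with H2BC14, H2AC15 with H2BC15, H2AC17 with H2BC17) only H2AC14 and H2BC15 were tested, and they were not called. The log2 differences of H2AC14 (-0.33) and H2BC14 (2.04) had opposite signs. Those of H2AC15 (1.998) and H2BC15 (0.95) were both positive, and those of H2AC17 (-0.94) and H2BC17 (-0.09) both negative.

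Genes that transcribe histone genes or process and regulate their mRNAs were mostly lower or not called. Of 19 tested, 1 was called higher, 8 lower and 10 were not called, with a median log2 difference of -0.81. The shares of all genes tested were 15.3% called higher and 22.8% called lower. SLBP, named for its role and not by size of change, fell from 7604 ± 398 to 3975 ± 463 (-0.94 ± 0.17 SE, adjusted p = 0.0025). NPAT, named in the same way, fell from 1381 ± 227 to 637 ± 75.9 (-1.08 ± 0.23 SE, adjusted p = 0.0061), and was not called without normoxia array A (adjusted p = 0.147). Its other probe sets gave -0.78 and 0.09. The largest decreases were those of NCBP1, a subunit of the nuclear cap-binding complex (-1.76 ± 0.22 SE), the cleavage stimulation factor gene CSTF2 (-1.67 ± 0.36 SE), MIF4GD, an SLBP partner in translation (-1.62 ± 0.30 SE), and CPSF3, the nuclease that cuts pre-mRNA 3' ends (-1.49 ± 0.22 SE). HINFP, a transcription factor of H4 promoters, rose from 538 ± 56.0 to 971 ± 104 (0.82 ± 0.24 SE, adjusted p = 0.0257), and lost the call without normoxia array A (adjusted p = 0.144) or B (adjusted p = 0.255). CSTF2 was under the highest control on hypoxia array A (177 against 305), so its size is imprecise. The count called lower was smaller without normoxia array A and larger without hypoxia array B, as was the share of all genes tested. The count called higher was 0 under scaling to the hybridization controls.

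Histone chaperones and assembly factors carry histones to DNA. Of 24 tested, 14 were called lower, 2 higher and 8 were not called (median -0.87). Beside these counts stand 22.8% lower and 15.3% higher of all genes tested. CHAF1B, a subunit of the replication-coupled assembly factor CAF-1, fell by 2.67 ± 0.82 SE on the log2 scale (adjusted p = 0.0299), and was not called without normoxia array A (adjusted p = 0.145) or B (adjusted p = 0.0543). HJURP, the chaperone of the centromeric H3 variant, fell by 2.32 ± 0.43 SE, ASF1B, an H3-H4 chaperone, by 1.79 ± 0.20 SE, and the importin gene IPO4 by 1.68 ± 0.30 SE. CHAF1B and IPO4 were under the highest control on both hypoxia arrays, and HJURP was under it on hypoxia array B (117 against 226). The sizes for CHAF1B, IPO4 and HJURP are therefore imprecise, while ASF1B was above the highest control on both hypoxia arrays. NPM1 (0.72 ± 0.21 SE) and NAP1L1 (0.66 ± 0.18 SE), the latter an H2A-H2B chaperone, were the 2 called higher. Both other probe sets of NPM1 lay below 0 (-0.01 and -0.54), and those of NAP1L1 ran from -2.69 to 0.73. Both calls were lost without hypoxia array A, and that of NPM1 also without hypoxia array B, and 0 of the list was called higher under quantile normalization or scaling to the hybridization controls. The count called lower was smaller without normoxia array A or B, as was the share of all genes tested. It was 7 when each gene's probe sets were averaged, beside 17.4% of all genes tested.

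Replacement and variant histones are made outside S phase from polyadenylated mRNAs or take special positions. Of 9 tested, 2 were called lower, 1 higher and 6 were not called (median -0.19). For all genes tested, the shares were 22.8% lower and 15.3% higher. H2AX, the variant phosphorylated at DNA breaks, fell from 4644 ± 111 to 1598 ± 82.1 (-1.53 ± 0.17 SE), and its dimmer probe sets gave 1.91, -0.85 and -0.44. MACROH2A1 fell by 1.41 ± 0.16 SE on the log2 scale, with other probe sets from -1.66 to 2.26. H2AZ1 rose from 17466 ± 2215 to 26586 ± 2012 (0.61 ± 0.18 SE, adjusted p = 0.0270); the call was lost without hypoxia array B (adjusted p = 0.106), with quantile normalization and with scaling to the hybridization controls. Without hypoxia array A, more of these variant genes were called higher and lower, as were more of all genes tested. The 17 tested genes of S phase and DNA replication were all called lower (median -2.53), against 22.8% of all genes tested. The largest decreases were those of DTL (-4.31 ± 0.79 SE), CCNE2 (-3.81 ± 0.80 SE), MCM5 (-3.21 ± 0.66 SE) and RRM2 (-3.12 ± 0.35 SE). On hypoxia array B, DTL (10.2), CCNE2 (17.3) and MCM5 (42.65) were under the highest control (226), so these sizes are imprecise. Their hypoxia A signals were 260, 330 and 350, so DTL was under the highest control of that array (305) as well. Second probe sets gave -3.54 for DTL, -2.83 for CCNE2, -1.35 for MCM5 and -3.72 for RRM2.

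**Figure D4:**
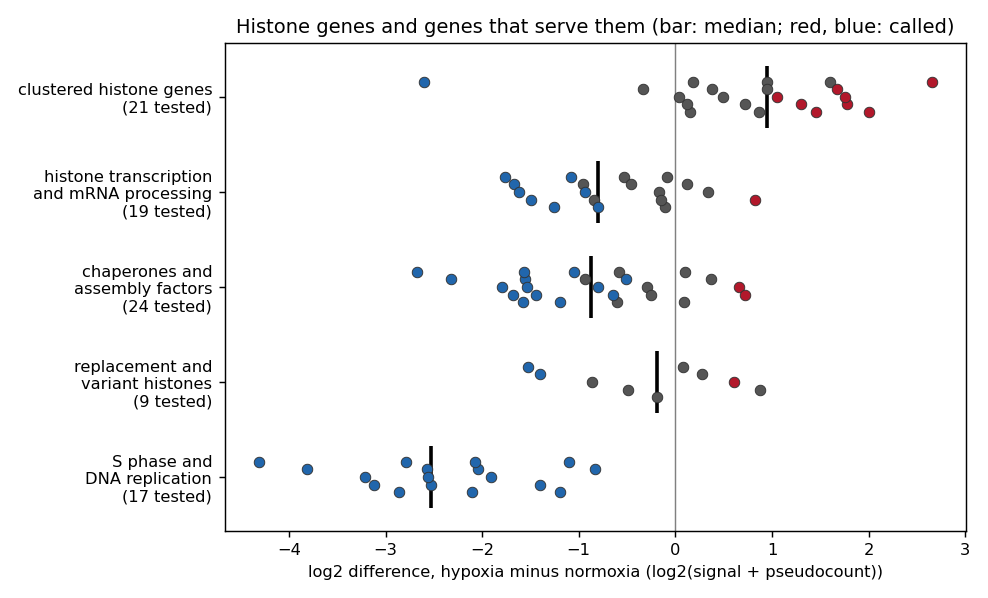
Log2 difference (hypoxia minus normoxia, log2(signal + 23.7) scale) of each tested coding histone gene and each tested gene of the 4 related lists, 1 point per gene, with a bar at each median. The 17 S phase genes lie lowest, with a median of -2.53, and the list medians of -0.81, -0.87 and -0.19 lie below the bar of the histone genes; calls above 0 in the lists and among the histone genes are lost under scaling to the hybridization controls.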

How the data were processed

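RNA of 4 samples was hybridized to 4 arrays of 54675 probe sets. The authors deposited linear intensities, 1 for each probe set, and the submitters' processing notes name MAS5 without a version. Trimmed by 2% at both ends, the mean signal was 500.1 on every array, which hides any shift that most genes have in common. Per the labels' protocols, 6 µg of total RNA went into each biotinylated cRNA.

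Samples were grouped by the labelled oxygen level. Of the probe sets, 41097 were listed for 1 gene in the platform annotation; per gene the one with the highest mean was used, and 12636 of 19775 genes passed a filter at the median probe set mean, 97.4. log2(signal + 23.7), with the 25th percentile as pseudocount, was fitted with limma 3.58.1 in R 4.3.3 (eBayes with a trend, two-sided), called at an adjusted p under 0.05 over all genes tested, and checked on simulated data. Promoters were the RefSeq table's; a gene listed more than once gave its lowest coordinate. Figures were made with Python 3.11.15 and matplotlib 3.10.9.

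The members, the 4 related lists and the tests were chosen with earlier results of these data known. Named were all H1 genes, the called members, members at the filter or where probe sets or neighbours differed, and from each list the 4 called genes with the largest change and those against its majority. NPAT, SLBP and genes described for lack of a call were added after their values were seen. Probe sets listed for several genes were kept out of the calls. The alternatives tried were other pseudocounts, scalings, filters, probe set choices, variance models and thresholds, letters A and B as a block, and leaving out each array.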

Additional observations from a re-analysis of the deposited data

How the results depend on the processing

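The count of 8 histone genes called higher ranged from 6 to 9 over the alternatives listed with the methods, other than those named next. It was 0 with scaling to the hybridization controls and 3 with only probe sets without an x or s suffix, where fewer members had a probe set. The count of 1 called lower was 2 with scaling to the hybridization controls. It was 0 with the filter at the 75th percentile, with only probe sets without an x or s suffix and at an adjusted p under 0.01. Fewer histone genes were called without normoxia array A or B, as were fewer of all genes tested. Without hypoxia array A or B, more of all genes tested were called. The share of all genes called higher ran from 0.413% with scaling to the hybridization controls to 23.1% with the filter at the 75th percentile. The share called lower was 13.0% without a filter and 46.0% with scaling to the hybridization controls. The histone counts are to be read beside these shares. With the letters A and B as a replicate block, 8 were called higher and 1 lower, beside 17.6% and 25.8% of all genes tested. Deviations of arrays of 1 letter correlated at 0.0875 over 12636 genes. This value compares a single A minus B difference per group, so it cannot decide whether the letters pair the arrays. The labels do not say whether they do, and the main fit did not pair them. With a pseudocount of 1 the class median was 1.14 in H1 and 1.75 in H2B. With the pseudocount at the median of all values it was 0.37 in H1 and 0.61 in H2B. Scaling to the hybridization controls gave class medians of -1.07 in H1, -0.65 in H2A, 0.23 in H2B, -0.49 in H3 and -1.01 in H4, beside -1.48 for all genes tested, and turned H2AC6 to -0.38 (adjusted p = 0.655) and H2BC12 to -0.15 (adjusted p = 0.861). The H4 median ranged from -0.54 to 0.42 over the arrays left out. Over its alternatives H2BC9 had adjusted p = 0.00184 to 0.705 and H2AC6 adjusted p = 1.26e-05 to 0.655. The cause of these changes was not tested. Signals near the Bacillus controls limit what most members can show.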

Other observations

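Another 20 probe sets were listed for several genes that include at least 1 histone gene of these classes, and 19 such symbols stood on those probe sets alone. Their genes cannot be told apart, so they are given by class. Of the 20, 4 were above the highest Bacillus control on all 4 arrays. Of those 4, 3 were higher on both hypoxia arrays. An H2A probe set of 2 genes read 997 and 898 in normoxia and 2707 and 1512 in hypoxia (log2 difference 1.08), and another for the same genes read 535 and 483 against 1423 and 902 (1.12). An H2B probe set of 5 genes read 286 and 186 in normoxia and 536 and 892 in hypoxia (1.49). The fourth was an H4 probe set listed for 14 genes, which read 2506 and 2753 in normoxia and 1180 and 1585 in hypoxia (-0.93), so both hypoxia arrays were lower. The other 4 probe sets of those 14 H4 genes were dimmer and gave -0.14, -0.14, 0.04 and 0.14. None of these probe sets was tested.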
